A study of Mus musculus with 4 samples.

Results

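Pitx1 ChIP-seq peaks of mouse hindlimb buds were examined around Bmp2, Bmp4 and Bmp7, which encode bone morphogenetic protein (BMP) ligands. Peaks were taken from 3 windows of the mm9 genome that are defined by position alone: chromosome 2 from 133000000 to 134300000 for Bmp2, chromosome 14 from 46500000 to 47600000 for Bmp4, and chromosome 2 from 172200000 to 173200000 for Bmp7. A peak belonged to a window when its midpoint lay inside. A replicated region was the union of peaks that overlapped by at least 1 bp between the ChIP libraries. The windows held 28 of the 10274 replicated regions, 42 of the 14753 replicate 1 peaks and 67 of the 25027 replicate 2 peaks. ChIP-seq had been done with a Pitx1 antibody on 2 libraries of hindlimb buds from wild-type ICR embryos at E11.5, and 2 input chromatin libraries of the same tissue received no antibody. Each ChIP library has its own list of peaks with a score, whereas the input libraries have no list and give no value here. Read depth is unknown for all 4 libraries. The labels do not tell whether the ChIP replicates are separate litters, and a control antibody was not analysed here.

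BMPs are secreted ligands of the TGF-beta superfamily that bind serine/threonine kinase receptors and signal through SMAD proteins. In the limb bud they are made in the mesenchyme and in the apical ectodermal ridge, where they are known for roles in patterning, in cartilage formation and in the death of cells between the digits. Secreted antagonists such as Gremlin and Noggin limit how far they act. Pitx1, a DNA-binding protein of the homeodomain class, is present in the early hindlimb but not the forelimb and is needed for hindlimb identity and growth.

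Gene positions were known only approximately, at about 133.38 Mb for Bmp2, 47.00 Mb for Bmp4 and 172.7 Mb for Bmp7, because no mm9 annotation was at hand. Distances therefore carry a rounding of up to 5.0 kb for Bmp2 and Bmp4 and 50 kb for Bmp7, beside the length of each gene, and no peak could be assigned to an exon, an intron or a promoter. In the gene order of another build (GRCm38.p6), Bmp2 lies between the protein-coding genes Fermt1 and Hao1, Bmp4 between Ddhd1 and Cdkn3, and Bmp7 between Tfap2c and Spo11. A peak in a window is thus near a BMP gene only by position, and which gene it acts on was not tested.

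A replicated region lay at about 5 kb from the approximate Bmp4 position, closer than any did to the approximate position of Bmp2 or Bmp7. The genes cannot be ranked by this, since positions are rounded by up to 5.0 kb for Bmp2 and Bmp4 and 50 kb for Bmp7. The promoter of Bmp4 is shown because no promoter sequence was at hand for Bmp2 or Bmp7. These are the 250 bases before the RefSeq transcription start on the minus strand of GRCm38.p6 (chr14:46390670-46390919), with capitals marking the homeodomain core TAAT, here on the opposite strand as ATTA:
Bmp4: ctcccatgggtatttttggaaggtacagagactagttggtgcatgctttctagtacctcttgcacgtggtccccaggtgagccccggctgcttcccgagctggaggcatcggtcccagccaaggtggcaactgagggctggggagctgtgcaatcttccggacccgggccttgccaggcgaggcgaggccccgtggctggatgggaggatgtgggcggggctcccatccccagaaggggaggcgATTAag
The sequence, 63.2% G and C, held the core 1 time on either strand. Of 32851 RefSeq promoters of this length, 54.9% held that core. The longer site TAATCC, which Pitx and Otx homeodomains recognise, was searched as TAATCC and GGATTA and was not among these letters, and 6.25% of all promoters held it. Coordinates were not converted between builds, so whether the mm9 peak near Bmp4 covers this sequence was not determined.

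The first question was how many Pitx1 ChIP regions lay around each gene, against the rate over the 19 autosomes. The Bmp4 window held 12 replicated regions in 1.1 Mb, or 10.9 per Mb, with a 95% exact Poisson interval of 5.64 to 19.1. The Bmp7 window held 8 in 1.0 Mb, or 8.0 per Mb (interval 3.45 to 15.8), and the Bmp2 window held 8 in 1.3 Mb, or 6.15 per Mb (interval 2.66 to 12.1). The autosomes averaged 4.11 per Mb (10145 regions, interval 4.03 to 4.19). The interval of the Bmp4 window lay above the autosomal rate, at 2.65 times it (1.37 to 4.64). Those of the Bmp7 window (1.95 times, 0.840 to 3.83) and the Bmp2 window (1.5 times, 0.646 to 2.95) included it. The intervals of the windows overlapped one another, so their order is not shown by these counts.

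Each list alone gave a similar ratio around Bmp4 and a larger one around Bmp7. Replicate 1 had 15 peaks in the Bmp4 window, 2.31 times the autosomal rate of that list (1.29 to 3.81), and replicate 2 had 24, or 2.18 times (1.4 to 3.24). In the Bmp7 window replicate 1 had 15 peaks, or 2.54 times (1.42 to 4.19), and replicate 2 had 25, or 2.50 times (1.62 to 3.68). Both Bmp7 intervals lay above the autosomal rate when all peaks of 1 library were counted, unlike the interval for replicated regions. In the Bmp2 window the counts were 12 in replicate 1 and 18 in replicate 2, at 1.56 times (0.808 to 2.73) and 1.38 times (0.819 to 2.18).

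Peaks are unevenly spread over the genome, which makes these intervals too narrow, so each window was also set beside autosomal segments of its own length. Of 2235 segments of 1.1 Mb, 7.16% held 12 or more replicated regions, as the Bmp4 window did, and the median segment held 3. Of 2460 segments of 1.0 Mb, 16.8% held at least the 8 regions of the Bmp7 window, with a median of 3. Of 1889 segments of 1.3 Mb, 25.1% held at least the 8 regions of the Bmp2 window, with a median of 4. All 3 windows thus stood above the median segment, and none near the highest, which held 34 to 40 regions. Segments were cut without regard to genes, so they include stretches far from any gene.

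**Figure D1:**
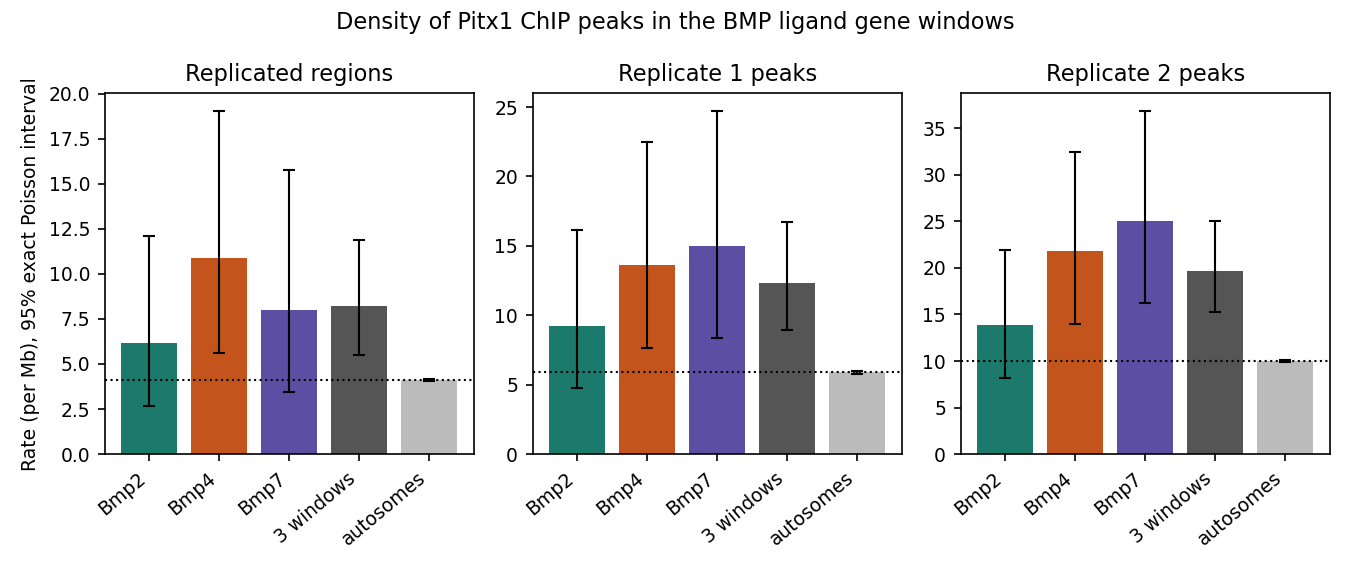
Peaks or regions per Mb (vertical axis, from 0) in each BMP ligand gene window, in the 3 windows together and over the autosomes, for replicated regions, replicate 1 peaks and replicate 2 peaks. Bars are the rates, whiskers the 95% exact Poisson intervals and the dotted line the autosomal rate. For replicated regions the Bmp4 window (10.9 per Mb) and the 3 windows together (8.24 per Mb) have intervals above the autosomal 4.11 per Mb.

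The map of peaks by distance shows where they lay. Bmp4 had regions on both sides, 5 at lower and 7 at higher coordinates than the gene position. The regions of Bmp2 were split into 4 and 4, and those of Bmp7 likewise. The Bmp2 position (133.38 Mb) is not central in its window (133.0 to 134.3 Mb), so equal counts there are not equal densities. Of the 28 regions, 2 lay within 50 kb of the gene position, 6 within 100 kb and 14 within 250 kb. An even spread of the 28 over the windows would place 2.47, 4.94 and 12.4 there, close to these counts. This was computed for the windows together only, and the windows differed. Within 250 kb lay 6 of 8 regions for Bmp2, 4 of 12 for Bmp4 and 4 of 8 for Bmp7. The longest gaps between neighbouring replicated regions inside a window measured 475 kb for Bmp2, 227 kb for Bmp4 and 224 kb for Bmp7.

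**Figure D2:**
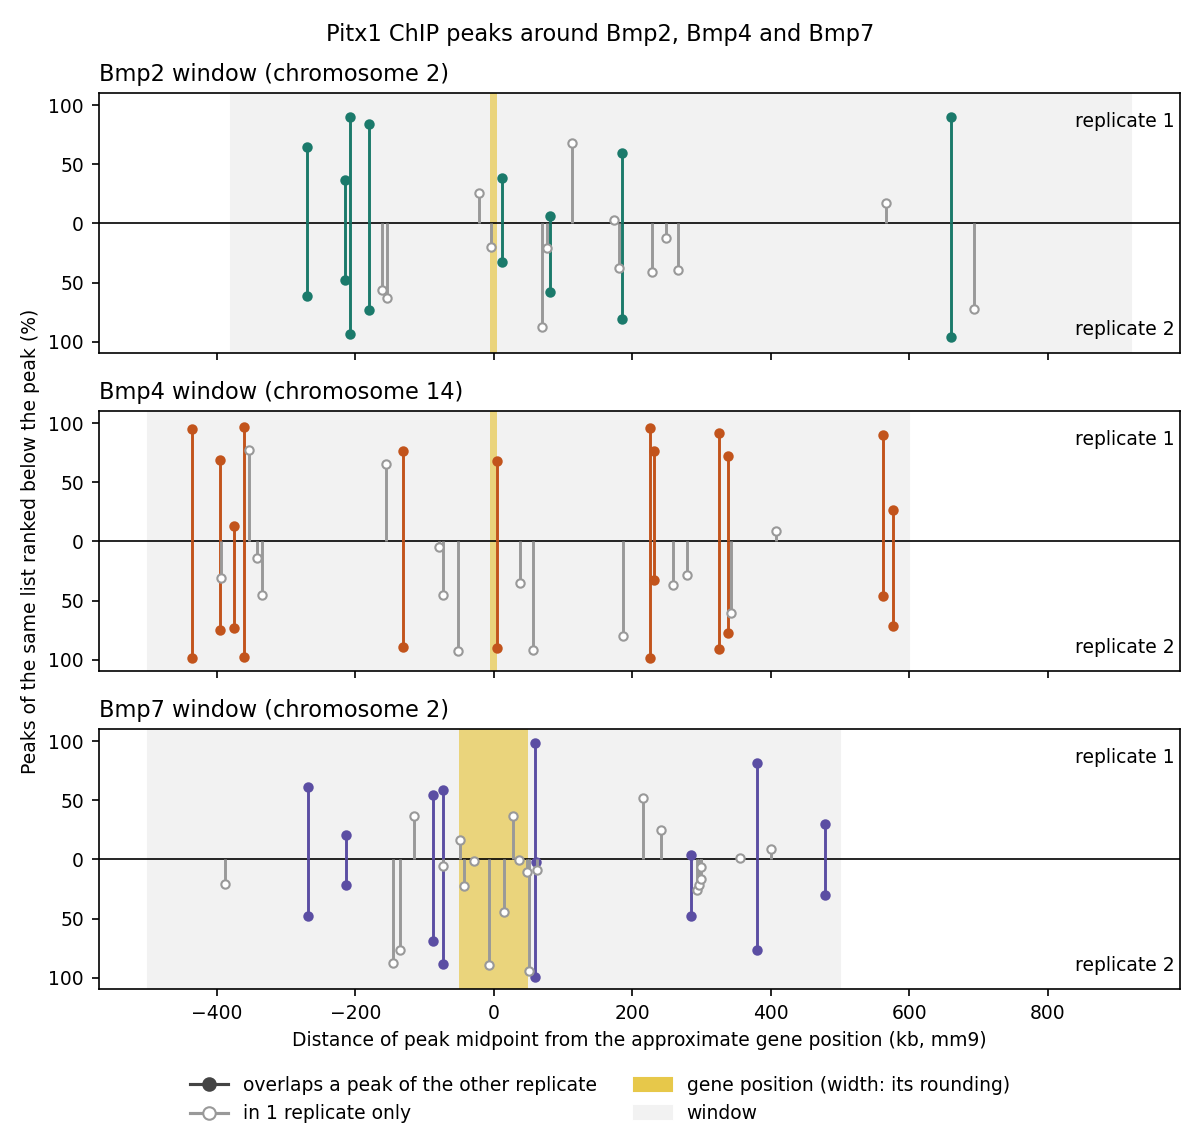
Pitx1 ChIP peaks of replicate 1 (upward) and replicate 2 (downward) by distance in kb from the approximate gene position in mm9 (horizontal axis). The height is the percentage of peaks of the same list ranked below the peak. Filled coloured points overlap a peak of the other replicate and open grey points do not. Within 50 kb of the gene position, Bmp2 and Bmp4 each have 1 replicated region and Bmp7 has none.

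The Bmp4 window contained strong Pitx1 ChIP peaks on both flanks and a moderate one near the gene. Bmp4 is expressed in limb mesenchyme and ridge and is known to be needed there for digit patterning. The strongest replicated region spanned 2888 bp from 47223380 to 47226267, about 225 kb from the gene position. It scored 337 in replicate 1 and 801 in replicate 2, within the best 4.20% and 1.19% of those lists. The midpoints of its peaks were 255.5 bp apart, so it would not count as replicated if midpoints within 250 bp were asked for. In an order of all 10274 replicated regions by summed rank it stood at 344. The next 2 lay on the other side of Bmp4, about 361 and 436 kb away. The region from 46638565 to 46640124 scored 390 in replicate 1 and 614 in replicate 2 and stood at 366 in that order. The region from 46563668 to 46565210 scored 311 and 820 and stood at 387. These 3 regions had closely matching places in the order, and all were within the best 3.77% of replicated regions.

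The regions at 1349 and 2431 in that order came next in the Bmp4 window by summed rank. One, from 47325938 to 47326864, scored 247 in replicate 1 and 293 in replicate 2, at about 326 kb. The other, from 46867381 to 46868371, scored 133 and 261, at about 132 kb on the lower side. The region nearest to Bmp4, from 47004442 to 47005310, lay about 5 kb from the gene position. It scored 109 in replicate 1, at 32.3% of that list counted from the best score, and 282 in replicate 2, at 9.87%. It was thus of middling strength in 1 library and in the highest decile of the other. The remaining 6 regions of the window scored between 55.7 and 222 in replicate 1 and between 69.3 and 164 in replicate 2.

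Replicate 2 placed strong peaks near Bmp4 that replicate 1 did not list. The strongest, from 46947468 to 46948093 and about 52 kb from the gene position, scored 328, and the nearest replicate 1 peak was 56.3 kb away. A peak from 47056150 to 47056818, about 56 kb on the other side, scored 320, with the nearest replicate 1 peak 50.8 kb away. It is named here because of its value. Both were in the highest decile of replicate 2. The best unshared replicate 1 peak of the window, from 46645806 to 46646546, scored 136 and lay 5.88 kb from a replicate 2 peak. Within 100 kb of Bmp4, replicate 1 had 1 peak and replicate 2 had 6, of which 1 overlapped between the lists. Over the autosomes 42.6% of replicate 2 peaks overlapped a replicate 1 peak, so the count rests on too few peaks to be told from that share.

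The Bmp2 window had its best regions at a distance from the gene, and its nearest region was weak in both lists. Bmp2 is known in the limb for roles in cartilage and bone formation and in the regions between digits. The strongest region, from 134040016 to 134041417, lay about 661 kb away beyond the longest gap between regions of the window, where replicate 1 scored it 221 and replicate 2 scored it 468. It stood at 919 among all replicated regions, and the nearest other one was 475 kb away. The second, from 133171685 to 133173294 and about 208 kb on the lower side, was listed at 216 in replicate 1 and 351 in replicate 2. It had a neighbour 6.35 kb away, from 133164540 to 133165330, which scored 69.2 in replicate 1 and 84.4 in replicate 2. The region from 133199574 to 133200591 scored 167 and 144, and the one from 133109290 to 133110563 scored 103 and 107. These 4 regions on the lower side of Bmp2 lay 180 to 270 kb from it.

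On the higher side of Bmp2, the nearest replicated region ran from 133391541 to 133392749, about 12 kb from the gene position. It scored 70.9 in replicate 1 and 68.8 in replicate 2, at 61.2% and 67.6% of the lists. The peaks behind it were displaced, with midpoints 247 bp apart. The region from 133460978 to 133461727, about 81 kb away, scored 52.6 and 100, and the one from 133564597 to 133565374, about 185 kb away, scored 93.5 and 181. Both regions within 100 kb of Bmp2 scored below the autosomal median of replicate 1 peaks (81.4), and in replicate 2 the one at about 81 kb scored above the autosomal median (87.7) and the one at about 12 kb below it. A replicate 2 peak from 133448372 to 133448751 scored 244 and was the strongest unshared peak of the window, about 69 kb from the gene position. It lay 12.2 kb from the nearest replicate 1 peak. The best unshared replicate 1 peak, from 133492190 to 133493014, scored 109.

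The Bmp7 window held the strongest region of all 3 windows, together with many low-scoring peaks and a few strong replicate 2 peaks. Bmp7 is known for roles in kidney, eye and skeletal development and is also made in the limb bud. The region, from 172758948 to 172761071, scored 485 in replicate 1 (rank 227) and 1044 in replicate 2 (rank 146) and stood at 141 among all replicated regions, within the best 1.37%. It joined 1 replicate 1 peak of 2124 bp with 2 replicate 2 peaks, and lay about 60 kb from the rounded gene position, close to the rounding of 50 kb. The midpoints of its best peaks differed by 367 bp, so that it would not count as replicated if midpoints within 250 bp were asked for. The same holds for the strongest Bmp4 region.

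The other 7 replicated regions around Bmp7 were far weaker. The region from 173079223 to 173080166 scored 154 in replicate 1 and 157 in replicate 2, and the one from 172625219 to 172626057 scored 92.8 and 258. Scores were 86.6 and 127 from 172611787 to 172612710, and 96.4 and 84.3 from 172431131 to 172431738. The weakest 3 by summed rank are best read against the lowest scores in the lists, 50 in replicate 1 and 50.01 in replicate 2. They scored 64.9 and 66.5 from 173177600 to 173178441, 51.8 and 84.5 from 172984756 to 172985344, and 59.3 and 61.0 from 172486366 to 172487060. Median scores of all peaks in the Bmp7 window were 69.2 in replicate 1 and 64.1 in replicate 2, against autosomal medians of 81.4 and 87.7. In the Bmp4 window they were 132 and 139, and in the Bmp2 window 82.2 and 98.9.

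Within 50 kb of the rounded Bmp7 position replicate 1 had 2 peaks and replicate 2 had 6, and none overlapped, against autosomal overlaps of 69.9% and 42.6%. With so few peaks and a position rounded by as much as 50 kb, nothing is read from this count, and the strongest shared region lay just beyond, at about 60 kb. The strongest of those, a replicate 2 peak from 172692592 to 172693418, scored 270, and the nearest replicate 1 peak was 33.3 kb away. Replicate 2 also had an unshared peak from 172750445 to 172750916 that scored 384, the highest of any unshared peak in the 3 windows, 8.03 kb from the wide replicate 1 peak of the strongest region. The best unshared replicate 1 peak, from 172914799 to 172915424, scored 83.2.

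The second question was how often peaks of these windows recurred. Of the replicate 1 peaks in the 3 windows, 28 of 42 (66.7%, 95% Wilson interval 51.6 to 79.0%) overlapped a replicate 2 peak, against 69.9% over the autosomes. Of the replicate 2 peaks, 29 of 67 (43.3%, 32.1 to 55.2%) overlapped a replicate 1 peak, against 42.6%. Recurrence in the windows was therefore near the autosomal share in both lists. By gene, it was 12 of 15 replicate 1 peaks for Bmp4 (80.0%, 54.8 to 93.0%), 8 of 12 for Bmp2 (66.7%, 39.1 to 86.2%) and 8 of 15 for Bmp7 (53.3%, 30.1 to 75.2%). For replicate 2 peaks it was 12 of 24 for Bmp4 (50%), 8 of 18 for Bmp2 (44.4%) and 9 of 25 for Bmp7 (36.0%). Bmp4 was highest and Bmp7 lowest in each list, but all intervals overlapped and included the autosomal share.

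**Figure D3:**
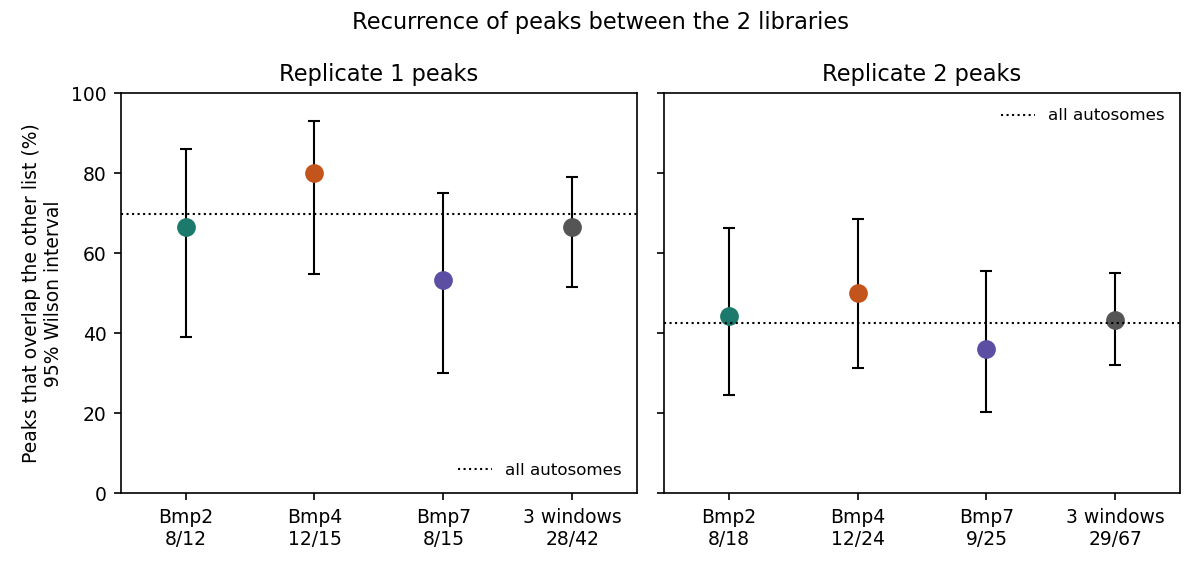
Percentage of replicate 1 peaks (left) and replicate 2 peaks (right) that overlap a peak of the other list, by window, with 95% Wilson intervals. Numbers under the names are shared peaks over all peaks, and the dotted line is the autosomal share (69.9% and 42.6%). Every interval includes the dotted line.

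Recurrence followed score in the windows as over the genome. Of peaks that ranked in the better 50% of their list, 20 of 24 replicate 1 peaks of the windows recurred (83.3%, against 86.9% on the autosomes) and 20 of 32 replicate 2 peaks (62.5%, against 63.6%). Among the rest it was 8 of 18 in replicate 1 (44.4%, against 52.7%) and 9 of 35 in replicate 2 (25.7%, against 21.5%). In the highest decile, all 7 replicate 1 peaks recurred, against 99.3% of autosomal peaks. In replicate 2, 8 of 11 did (72.7%, 43.4 to 90.3%), against 95% on the autosomes. The 3 exceptions are the unshared peaks near Bmp4 that scored 328 and 320 and the one near Bmp7 that scored 384. This interval lies below the autosomal share, but it rests on 11 peaks and was computed after the peaks had been seen.

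Strength was spread widely among the 28 replicated regions. Their places in the order by summed rank had a median of 41.2%, where lower is stronger, against 49.9% for autosomal regions. By gene the medians were 48.3% for Bmp2, 32.5% for Bmp4 and 61.7% for Bmp7. In the best decile were 5 of the 28 (17.9%), against 10.1% of autosomal regions, namely 3 of Bmp4, 1 of Bmp2 and 1 of Bmp7. Some regions had widely different places in the libraries. One Bmp4 region, from 47561226 to 47562582, was at 9.69% of the replicate 1 list and at 53.7% of the replicate 2 list. Another, from 46624896 to 46625536, was at 86.7% and 27.1%. Both were outside the rule for named regions and were picked once their values were known.

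**Figure D4:**
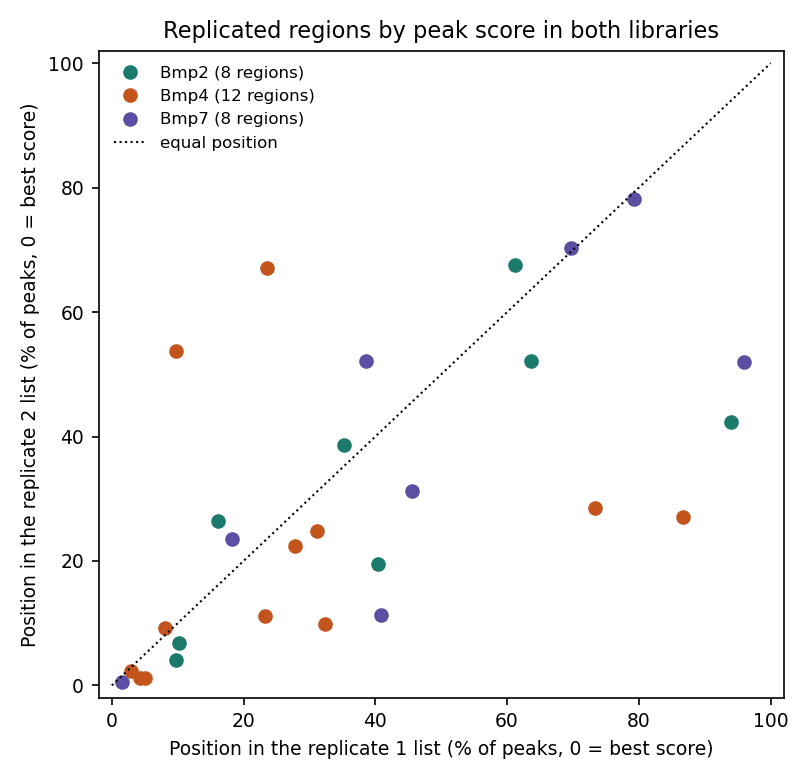
Place of each of the 28 replicated regions in the replicate 1 list (horizontal axis) and in the replicate 2 list (vertical axis), as a percentage of the list counted from the best score. Each point is a region, coloured by gene, and the dotted line marks equal places. The strongest regions of Bmp4 and Bmp7 sit at the lower left, with the Bmp7 region at 1.54% and 0.583%.

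In median length and median gap the 28 replicated regions together were near those of the autosomes, though spacing differed by window. Their median length was 944 bp (589 to 2888 bp), against 863 bp. The gap to the nearest other replicated region had a median of 32.5 kb, against 37.5 kb. Of the 28 regions, 4 (14.3%) had another within 10 kb, against 24.3% of autosomal regions, and no run of 3 or more under 10 kb apart was found. Regions around Bmp4 were closest together, with a median gap of 12.8 kb, against 61.1 kb around Bmp2 and 74.2 kb around Bmp7. The replicate 1 peak was the wider in 26 of the 28 regions. Peaks of replicate 1 were wider over the autosomes too, with a median of 798 bp, against 456 bp in replicate 2.

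The authors also deposited a list of 10625 positions of 1 bp, without scores. In the windows it held 29, which fell in all 28 replicated regions (the strongest Bmp7 region held 2), against 99.7% of autosomal regions with a position. Each of the 29 lay inside a peak of both lists. Their median distance from the midpoint of the replicate 2 peak was 37 bp in the Bmp2 window, 22 bp in the Bmp4 window and 14 bp in the Bmp7 window.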

How the data were processed

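Pitx1 ChIP-seq peak lists of 2 libraries were used, and the 2 input libraries have no list. Per the labels' protocols, tissue was fixed in 1% formaldehyde for 30 minutes, chromatin was sheared to between 200 and 600 bp, and material of 3 ChIPs was combined. The submitters' processing notes name mm9 as the build, and MACS 1.4.2, Bowtie 0.12.8, bedtools 2.16.2 and CASAVA 1.7 and 1.8.2 as tools. What each tool did, and whether the caller used the input, is not stated there. All peaks carry MACS names numbered per list, so they were called per library. The score deposited by the authors for each peak is the caller's own value and was used only within its list. Another deposited file by the authors holds positions, with no score or other measured value, and how it was made is not stated.

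Windows, midpoints, overlaps, ranks, exact Poisson and Wilson intervals (95%) were computed with Python 3.11.15, numpy 2.4.6, pandas 2.3.3 and scipy 1.17.1; figures used matplotlib 3.10.9. Intervals cover counting error only. Autosomal length (2468 Mb) runs to the last peak of each chromosome. The study has 1 condition, so no test between groups was made. The pairing of peaks was tested only on simulated lists with fixed widths and a fixed shift. Those lists held no partial overlaps and no joins of several peaks. Named regions were all replicated regions of windows with 10 or fewer, otherwise the 5 with the lowest summed rank and the nearest, and the best unshared peak of each list. Members and lists were chosen with earlier results of these data known. Alternatives were stricter scores, lists of equal length, other definitions of a shared peak, merging of regions, and each replicate alone. A window of 500 kb on each side of the gene position was another, which for Bmp7 is the window already used. BMP receptors, antagonists and targets were not analysed here, because no mm9 annotation was at hand. Coordinates are counted from 1.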

Additional observations from a re-analysis of the deposited data

How the results depend on the processing

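No paired analysis was possible because input chromatin, whose libraries carry the same numbers as the ChIPs, has no peak list here. The rate relative to the autosomes stayed above 1 under every alternative run, at 1.38 to 1.95 for Bmp2, 2.18 to 3.31 for Bmp4 and 1.77 to 2.54 for Bmp7. Bmp4 kept an interval above the autosomal rate under each of these alternatives (lowest bound 1.14, with midpoints within 250 bp), whereas Bmp7 had one only when 1 replicate was left out. These intervals are too narrow for unevenly spread peaks, and the comparison with segments of the same length was not repeated under the alternatives. Among the better-scoring 50% of peaks, the Bmp2 window kept 5 regions and the Bmp7 window 4. With each replicate left out in turn, all peaks of the other list were counted, which gave 12 to 18 for Bmp2, 15 to 24 for Bmp4 and 15 to 25 for Bmp7. When replicate 2 was reduced to as many of its best peaks as replicate 1 has, 60.0% of its peaks in the windows were shared, since its weaker peaks are then left out. For the Bmp4 promoter, TAATCT gave no match, like TAATCC, and the shorter core TAAT, added after the sequence was seen, gave 1. The other 52 of 60 alternative values stayed within their limits, namely 1.5 times for counts and the 95% interval otherwise. Some of these could not have moved. The window of 500 kb on each side of the gene position is, for Bmp7, the window already used. Merging regions under 1 kb apart could not change a window count, because the smallest gap between regions was 3.8 kb. Read depth, which is unknown, limits what can be said of peaks found in 1 list.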

Other observations

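Replicate 2 peaks formed 3 groups of at least 3 peaks under 10 kb apart in the windows, with 13 of the 67 peaks (19.4%, against 16.9% of autosomal replicate 2 peaks, in 1127 groups). Of these 13, 4 overlapped a replicate 1 peak (30.8%, against 48.8% of autosomal peaks in such groups), a count too small to be told from the autosomal share. Around Bmp7, 5 replicate 2 peaks lay within 13.6 kb, from 172748195 to 172761772 on chromosome 2, and 2 of them overlapped the wide replicate 1 peak of the strongest region. A second group of 5 lay within 14.5 kb, from 172984875 to 172999403, with 1 shared, and the 4 others scored between 52.6 and 64.1. Around Bmp2, 3 replicate 2 peaks lay within 13.3 kb, from 133448372 to 133461634, with 1 shared. In the Bmp4 window no list had 3 or more peaks under 10 kb apart.

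Replicated regions lay at differing distances from the edges of the windows. The nearest region outside was 38.9 kb below the Bmp2 window and 320 kb above it. It was 53.8 kb below and 352 kb above the Bmp4 window, and 53.5 kb below and 328 kb above the Bmp7 window. The nearest inside were 110 and 259 kb from the edges for Bmp2, 64.4 and 24.4 kb for Bmp4, and 231 and 22.0 kb for Bmp7. Peaks of the single lists could lie closer outside. Above the Bmp7 window the nearest was 18.3 kb away in replicate 1 and 1.8 kb away in replicate 2.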
